A study of Caenorhabditis elegans with 2 samples.

Results

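The 32 neuronal synapse and transmitter genes described here are 32 of the 19973 protein-coding genes of Caenorhabditis elegans, listed by their Ensembl names and not by their signal. The genes and their classes were nonetheless chosen with earlier results of these data known. They were put into 3 classes by known role. The 16 genes classed as pan-neuronal stand for functions shared by many neurons, and how widely each one is used was not examined here. The 8 transmitter-specific genes make or load acetylcholine, GABA, glutamate or monoamines. The 8 sensory and identity genes serve touch and sensory neurons or set neuron identity. RNA polymerase II was profiled by chromatin immunoprecipitation and sequencing (ChIP-seq) with an antibody against AMA-1, its large catalytic subunit. The animals were whole wild-type L4 larvae of strain N2, of both sexes and unknown age, in 1 group with 2 biological replicates. No treatment, mutant or other stage is part of the comparison, so each value is set beside the other members or beside all protein-coding genes. Whether the replicates came from separate cultures is not stated beyond their label as biological replicates.

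At a chemical synapse, a nerve ending releases transmitter when vesicles docked at the membrane fuse with it. The fusion is driven by the SNARE proteins on vesicle and membrane, is prepared by priming proteins at the active zone, and is triggered by calcium. Small clear vesicles carry transmitters such as acetylcholine, GABA, glutamate or the monoamines, loaded into the vesicle by a transporter for that kind of transmitter and in several cases made by a dedicated enzyme, while dense-core vesicles carry neuropeptides that are cut from larger precursors. In the nematode, neurons are a minority of the cells of a whole larva, and many transmitter and sensory genes are used by only a few of them.

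Peaks were deposited for each replicate (30000 each), for the pooled alignments (30000) and as a set of 2082 that passed an irreproducible discovery rate filter (the IDR set). Each list of 30000 holds peaks and background, deposited as input for that filter. A summit in it is thus not by itself evidence of polymerase. The IDR set is exactly the 2082 strongest pooled peaks. Each peak has a summit, the base of highest signal, and a signal value from the authors' caller, which ranks peaks within a list but is not on one scale across lists. A rank percentile of 100 is the strongest peak of a list, and 0 stands for a gene with no summit in the gene or 500 bp either side. Read depth is unknown here. Markers of other tissues also carried pooled summits in that window: 3 of 3 genes of body wall muscle, 3 of 4 of intestine, 2 of 3 of hypodermis, 2 of 3 of pharynx and 2 of 3 of germline. The share of all protein-coding genes by the same rule was 43.3%. The strongest summit at the muscle myosin gene unc-54 had rank 784 and lay past its end, in the 5′ UTR of aex-5, and that at the cuticle collagen gene col-10 had rank 34; neither had a replicate 2 summit within 100 bp. The other markers with a pooled summit stood lower, with best ranks from 1372 (elt-3) to 29368 (elt-2). The gene ama-1 itself held 11 summits, the best at rank 5901. In such a mixture, fewer cells that use a gene and less polymerase per cell cannot be told apart.

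Sequences around the annotated start are shown first for 5 of the 6 pan-neuronal genes with a pooled summit within 500 bp of it, since most start summits of the members were at this class; the other, ida-1, is described by the summits along its body. Each line gives 30 bases before the annotated start and 20 bases after it, 5′ to 3′ on the strand of the gene, from the RefSeq genome of the same assembly as ce11. Capitals mark TTTCAG where it stands immediately before the annotated start, the letters of the nematode splice acceptor consensus, at which the spliced leader is also joined to messages. The leader is joined after transcription, so a start annotated at such a site need not be the site where transcription begins.
snb-1: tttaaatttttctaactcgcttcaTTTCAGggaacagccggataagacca
egl-21: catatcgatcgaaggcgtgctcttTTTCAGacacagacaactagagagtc
sbt-1: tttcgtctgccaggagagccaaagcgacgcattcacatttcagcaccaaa
rgef-1: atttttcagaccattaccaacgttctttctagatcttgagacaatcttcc
egl-3: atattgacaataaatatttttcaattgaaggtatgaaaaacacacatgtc
They lie at chrV:6656482-6656531 (snb-1), chrIV:10481825-10481874 (egl-21), chrV:20828862-20828911 (sbt-1), chrV:9561655-9561704 (rgef-1) and chrV:10173734-10173783 (egl-3), all on the minus strand. TTTCAG, searched on the strand of the gene at that 1 position, was found at 5 of the 32 members (snb-1, ric-4, snt-1, egl-21 and cha-1) and at 12.3% of all protein-coding genes. Of the 9 members with a pooled summit near the start it was found at 2, snb-1 and egl-21.

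Pan-neuronal genes carried summits most often in the pooled list and in both replicates. They are also the longest class, and the order did not hold in every length class or in the IDR set. In the pooled list 13 of 16 pan-neuronal, 4 of 8 transmitter-specific and 3 of 8 sensory and identity genes had a summit in the gene or 500 bp either side, 20 of 32 in all, against 43.3% of all protein-coding genes. Replicate 1 had one at 15 of 16, 5 of 8 and 3 of 8 genes of these classes, 23 in all, against 42.8% of protein-coding genes. Replicate 2 had one at 11 of 16, 4 of 8 and 2 of 8, 17 in all, against 43.6%. The mean over the replicates was 20 ± 4.24 members (SD, n = 2). The share of all protein-coding genes was nearly the same in both lists, while the neuronal genes had fewer summits in replicate 2.

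**Figure D1:**
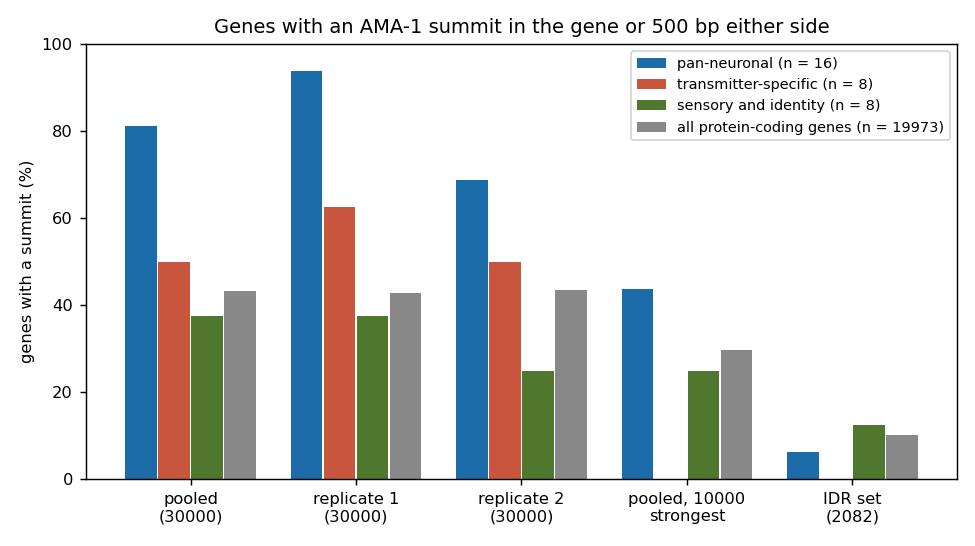
Share of genes (percent, vertical axis) with a summit in the gene or 500 bp either side, for 3 classes of neuronal genes and all protein-coding genes, in each peak list; each bar is 1 list, with no error of its own. Pan-neuronal genes stand at 81.2% in the pooled list and 6.25% in the IDR set, where all protein-coding genes stand at 43.3% and 10.3%.

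Long genes meet more summits, and the members are long: their median length was 4932 bp, against 2027 bp for all protein-coding genes. Among genes under 2000 bp, 3 of 3 members had a pooled summit against 33.0% of protein-coding genes. From 2000 to under 5000 bp it was 6 of 14 against 46.5%, from 5000 to under 10000 bp 6 of 10 against 63.4%, and from 10000 bp upwards 5 of 5 against 78.5%. Median length followed the same order as the calls, with 6191 bp for pan-neuronal, 4994 bp for transmitter-specific and 3696 bp for sensory and identity genes. From 2000 to under 5000 bp, 3 of 3 pan-neuronal genes had a pooled summit. It was 1 of 4 for transmitter-specific and 2 of 7 for sensory and identity genes. From 5000 to under 10000 bp, 4 of 7 pan-neuronal and 2 of 3 transmitter-specific genes had one, so the order was not seen there. The part of gene length in the class order was not tested further. Within the 2 middle length classes, which hold 24 members, the count of members was near or below the background. Per kb searched, the members held 0.339 pooled summits and all protein-coding genes 0.389. Pan-neuronal genes held 0.438, transmitter-specific genes 0.138 and sensory and identity genes 0.216 pooled summits per kb. The last 2 classes stood in the other order in replicate 1, which had 0.506, 0.295 and 0.162 per kb in these classes against 0.377 for all protein-coding genes. Replicate 2 had 0.31, 0.118 and 0.162 against 0.395. Pan-neuronal density was thus above the background in replicate 1 and below it in replicate 2. On the X chromosome 3 of 6 members had a pooled summit against 31.5% of X-linked genes, and on the autosomes 17 of 26 against 45.2% of autosomal genes.

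The peaks at these genes were mostly of middle or low rank. In the IDR set 2 of 32 members had a summit in the window, snb-1 and osm-6, against 10.3% of all protein-coding genes. By class it was 1 of 16 pan-neuronal (6.25%), 0 of 8 transmitter-specific and 1 of 8 sensory and identity genes (12.5%). Among the strongest pooled peaks, cut at a number that is 2 times the size of the IDR set, there were 6 members against 17.8%. They were 4 of 16 pan-neuronal, 0 of 8 transmitter-specific and 2 of 8 sensory and identity genes, so the first and last class had the same share (25.0%). Among the 10000 strongest there were 9 members (7, 0 and 2 of these classes) against 29.8%. The median best percentile in the pooled list was 62 for pan-neuronal, 11.8 for transmitter-specific and 0 for sensory and identity genes, and 0 for all protein-coding genes. In replicate 1 these medians were 69.7, 44.5 and 0, and in replicate 2 they were 44.2, 8.96 and 0. These medians count a gene without a summit as 0, so they also reflect how many genes had one. Among genes that had a pooled summit at all, the members' median was 62, against 81.2 for protein-coding genes. By class it was 67.4 for 13 pan-neuronal, 31.5 for 4 transmitter-specific and 91.1 for 3 sensory and identity genes. The last class thus stood highest by this measure, as it did in replicate 1 (70.5, 45.6 and 93.4) and in replicate 2 (57.4, 21.9 and 95.3).

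**Figure D2:**
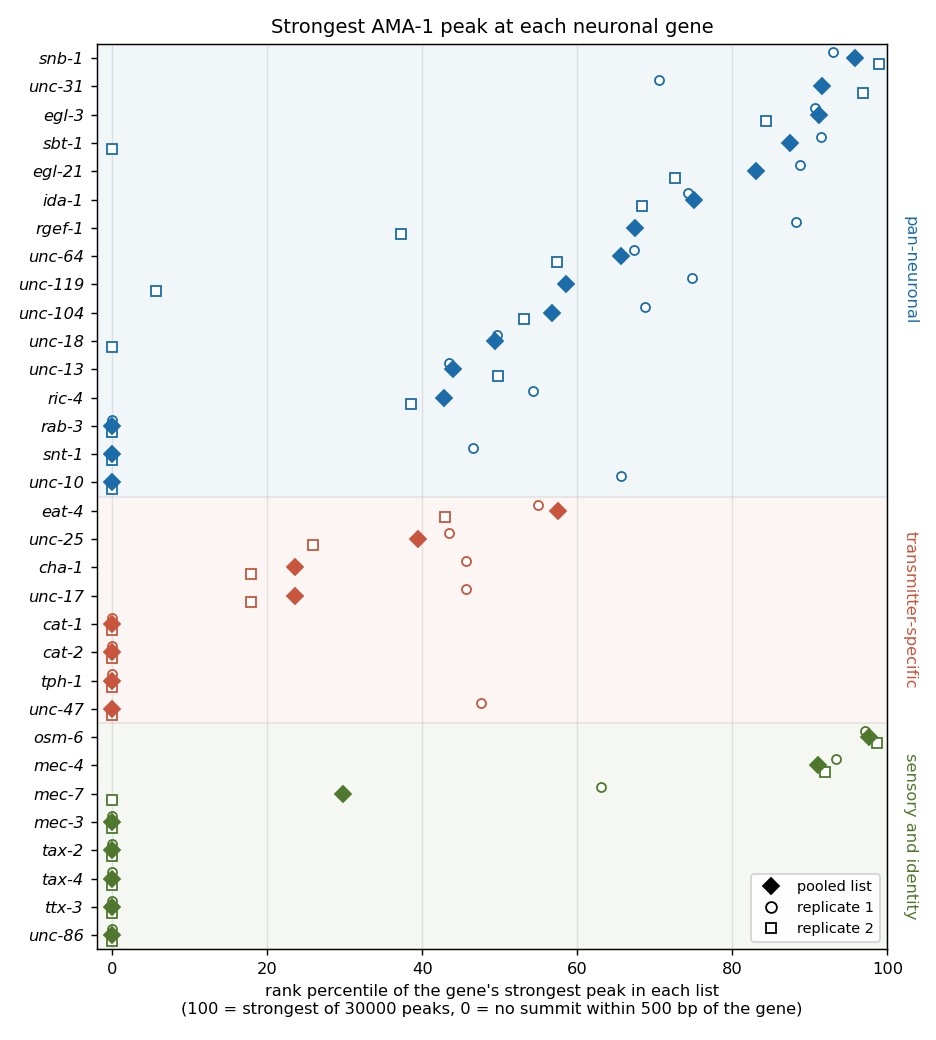
Rank percentile (horizontal axis, 100 the strongest of 30000 peaks, 0 no summit in the gene or 500 bp either side) of the strongest peak at each of the 32 genes, with filled diamonds for the pooled list, open circles for replicate 1 and open squares for replicate 2. Pan-neuronal genes spread over the whole range, and 9 genes, 1 of them pan-neuronal (rab-3), sit at 0 in every list.

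Gene starts were not where most of these summits lay. A pooled summit within 500 bp of the annotated start was found at 9 of 32 members against 30.7% of all protein-coding genes: 6 pan-neuronal genes (snb-1, rgef-1, sbt-1, ida-1, egl-3 and egl-21), 1 transmitter-specific gene (unc-25) and 2 sensory genes (mec-7 and osm-6). Replicate 1 had such a summit at 12 members against 28.0%, and replicate 2 at 6 members against 31.9%. In the IDR set only snb-1 had one, 1 of 32, against 5.57%. Counting each summit once for each member it belongs to, there were 80 pooled cases from 79 different summits: 11 (13.8%) at starts, 22 (27.5%) at ends and 47 (58.8%) elsewhere in the gene. For all protein-coding genes these shares were 25%, 26.8% and 48.2%. Starts and ends are zones of fixed size, and the members are longer (median 4932 bp against 2027 bp), with more room elsewhere in the gene. These shares were not compared by length class. The median percentile of the members' summits was 47.1 at starts, 53.6 at ends and 38.3 elsewhere in the gene, against 64.9, 65.8 and 42.2 for all protein-coding genes.

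Of the vesicle fusion genes, snb-1, which encodes the vesicle SNARE synaptobrevin, had the strongest peak of a pan-neuronal gene. Its IDR summit, at chrV:6656852, lay 351 bp before the annotated start with no other gene within 500 bp. The signal there was 58.1 in the pooled list (rank 1254 of 30000), 14.9 in replicate 1 (rank 9098, 35 bp away) and 45.7 in replicate 2 (rank 338, 3 bp away). The site was thus called in both replicates but stood far higher in replicate 2. The summit base, in capitals, and the 50 bases either side of it, chrV:6656802-6656902 on the minus strand, are given below, since it is the only start summit of a member in the IDR set.
snb-1 upstream summit: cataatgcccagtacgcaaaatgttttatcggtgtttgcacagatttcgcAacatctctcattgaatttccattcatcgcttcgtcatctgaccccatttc
The other 3 pooled summits of snb-1 lay in its 3′ UTR and past its end. The stronger of them (43.8, rank 2443) was 164 bp past the end and 51 bp inside syx-18, the next gene on the same strand, and was at rank 2091 in replicate 1 with no summit of replicate 2 within 100 bp. With 4 pooled summits on a gene of 940 bp, snb-1 held 2.06 per kb, more than 98.7% of protein-coding genes under 2000 bp.

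The partners of snb-1 in the fusion machinery ranged from many weak summits to none. unc-64, the membrane SNARE syntaxin, had 9 pooled summits, 9 in replicate 1 and 8 in replicate 2, of which 6 pooled summits lay in introns and 3 in the 3′ UTR and none within 500 bp of the start. Its strongest, 2942 bp into the gene in an intron, had a signal of 20.4 (rank 10327) and was at rank 19463 in replicate 1 and 17552 in replicate 2. At 1.18 summits per kb it stood above 90% of genes of 5000 to under 10000 bp, but the summits were low, with a median signal of 15.5. ric-4, the SNAP-25 SNARE, had 3 pooled summits, the best at rank 17158. rab-3, the small GTPase of synaptic vesicles, had no summit in any list. snt-1, the calcium sensor synaptotagmin, had 1 summit in replicate 1 (rank 16039, in an intron) and none in the pooled list or in replicate 2.

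Genes of vesicle priming and the active zone carried low-ranking summits inside their bodies. unc-13, which prepares docked vesicles for release, held 6 pooled summits over its 31332 bp, 3 in introns and 3 in coding exons, and the best had a signal of 14.5 (rank 16788). Of these 6, 5 were matched in replicate 1 within 100 bp, 1 in replicate 2 and 0 in both. unc-18, the syntaxin-binding Munc18 protein, had 2 pooled summits (best rank 15169, in a coding exon), 4 in replicate 1 and 0 in replicate 2. unc-10, the active zone protein RIM, had 5 summits in replicate 1, the best at rank 10280 in a coding exon, and none in the pooled list or in replicate 2. The unc-10 summits were in replicate 1 only, and the best pooled summit of unc-18 had no summit of either replicate within 100 bp.

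The summed windows of 4 genes of neuropeptide processing and dense-core vesicles held more pooled summits per kb than those of the other 12 pan-neuronal genes. The group of sbt-1, ida-1, egl-3 and egl-21 held 28 pooled summits in 23.43 kb (1.2 per kb), against 0.296 per kb for the other 12 pan-neuronal genes and 0.389 for all protein-coding genes. In replicate 1 the densities were 1.07 and 0.4, and in replicate 2 they were 0.896 and 0.2, for these 4 genes and the other 12. Single genes did not all follow this order. In the pooled list egl-3 held 1.26 per kb, ida-1 1.24, egl-21 1.14 and sbt-1 0.923. Outside the group, snb-1 held 2.06, more than any gene in it, and unc-64 held 1.18, more than egl-21 and sbt-1. Of the rest, rgef-1 was highest at 0.602 per kb. The group was set apart with earlier results of these data known, so the contrast is a description. unc-31, which also acts in dense-core vesicles, is not in it. With unc-31 added, the group holds all 5 members with a dense-core vesicle role. Its pooled density was then 0.797 per kb against 0.311 for the other 11 pan-neuronal genes. This grouping was also chosen after the values were seen. ida-1 supplied 14 of the 28 summits, and without it the other 3 genes held 1.15 per kb. Of the 28 summits, 24 had no other gene within 500 bp.

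egl-3 encodes the proprotein convertase that cuts neuropeptide precursors. Its strongest summit lay 104 bp past the annotated end with no other gene near it, at 42.3 in the pooled list (rank 2632), 27.2 in replicate 1 (rank 2791) and 15.9 in replicate 2 (rank 4687). Both replicates thus placed it among their 5000 strongest peaks. The other 6 pooled summits ran down from 23.3, also near the end, to 8.49 in an intron, and the one before the start, 63 bp upstream, had only 8.88 (rank 28138). egl-21, the carboxypeptidase that trims the cut peptides, showed the other order, with its strongest summit 27 bp after the start (30.6, rank 5104; rank 3391 in replicate 1, none in replicate 2 within 100 bp). A second summit 176 bp before the start had 17.2 in the pooled list (rank 13389), 10.3 in replicate 1 (rank 15683) and 11.5 in replicate 2 (rank 8233).

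sbt-1 encodes the 7B2 chaperone of the convertase, and its best summit lay 2 bp before the annotated start, in the middle of the sequence given above. That summit had 35.4 in the pooled list (rank 3759) and 28.4 in replicate 1 (rank 2559, at the same base), and replicate 2 had no summit anywhere in the window of sbt-1. ida-1, a transmembrane protein of dense-core vesicles related to the IA-2 phosphatases, held 14 pooled summits, 12 in replicate 1 and 14 in replicate 2. They were spread along the whole gene with a median gap of 859 bp, 9 in introns, 3 in coding exons, 1 in the 5′ UTR and 1 past the end, and their signals ran from 8.32 to 24.6. The highest, 354 bp past the end, was at pooled rank 7504 and at rank 8409 in replicate 1, with none in replicate 2 within 100 bp. At 1.24 per kb, ida-1 stood above 92.3% of genes of 10000 bp or more. Of its 14 summits, 4 were matched in both replicates.

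**Figure D3:**
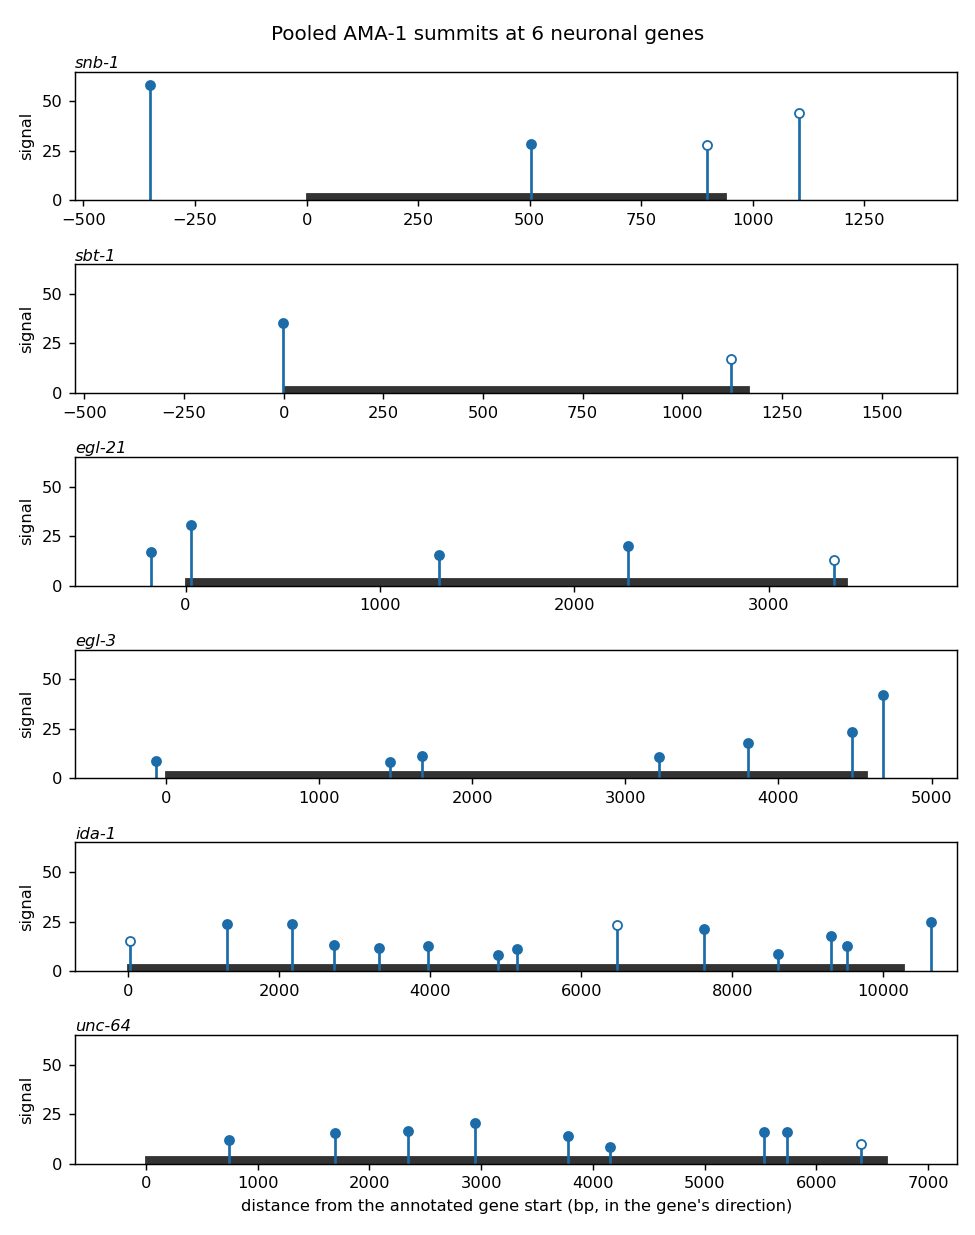
Pooled AMA-1 summits at 6 pan-neuronal genes, with distance from the annotated start (bp, in the direction of the gene) on the horizontal axis and the signal value of the authors' caller on the vertical axis; the dark bar is the gene, filled points are summits with no other gene within 500 bp, and open points lie near or inside another gene. snb-1 is highest before its start (58.1), egl-3 past its end (42.3), and ida-1 has 14 low summits along its body.

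The peaks of unc-31 lay at small nuclear RNA (snRNA) genes inside it. unc-31 encodes the CAPS protein, which is needed for release from dense-core vesicles, and all 3 of its pooled summits were in introns at the snRNA genes ZK897.2, ZK897.3 and ZK897.4. At ZK897.2, 55 bp past its end, the signal was 40.9 in the pooled list (rank 2818), 8.52 in replicate 1 (rank 19631) and 31.4 in replicate 2 (rank 950). Inside ZK897.3 it was 20.8 in the pooled list (rank 10061) and 20.4 in replicate 2 (rank 2794), with none in replicate 1. At ZK897.4, 32 bp past its end, it was 43 in the pooled list (rank 2528), 15.2 in replicate 1 (rank 8842) and 26.7 in replicate 2 (rank 1439). All 3 sites ranked far higher in replicate 2 than in replicate 1, which lacked the middle one. Replicate 2 also had 2 weak summits in unc-31 away from any other gene, in a coding exon (rank 20642) and in the 3′ UTR (rank 21845). Genes for snRNA occur in several copies, and the sources used here do not say how reads that match more than 1 place were handled. None of the pooled signal at unc-31 could be given to unc-31 alone.

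The best pooled summits of the remaining pan-neuronal genes were of middle rank, from 9787 to 12986. unc-104, the kinesin that carries synaptic vesicle precursors along axons, had 5 pooled summits, of which the strongest (17.5, rank 12986; rank 9365 in replicate 1) lay in an intron beside the tRNA genes C52E12.t2 and C52E12.t3 and another was inside C52E12.t2. Only 1 of the 5, in an intron 636 bp from the start (rank 17575), had no other gene within 500 bp. rgef-1, a guanine nucleotide releasing protein for Ras, had its best summit 221 bp before the start (21.1, rank 9787; rank 3544 in replicate 1), with none in replicate 2 within 100 bp, and its other 3 lay at its end beside ehbp-1. unc-119, a lipid-binding adaptor, had 1 pooled summit in an intron (18, rank 12458), at rank 7560 in replicate 1 and rank 28296 in replicate 2.

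No transmitter-specific gene reached the 10000 strongest pooled peaks. eat-4, the vesicular glutamate transporter, had 2 pooled summits, both at its end and both inside ZK512.2, a gene on the other strand that overlaps its end; the better had 17.7 (rank 12758), with ranks of 17950 and 17115 in replicates 1 and 2. unc-25, the enzyme that makes GABA, had 3 pooled summits, the best 139 bp before the start (13.7, rank 18167) and within 500 bp of the end of epg-3. unc-47, the vesicular GABA transporter, had 1 summit in replicate 1 (rank 15724, 133 bp past its end and near mua-3) and none in the pooled list or in replicate 2. In the cholinergic locus, unc-17, the vesicular acetylcholine transporter, and cha-1, the enzyme that makes acetylcholine, overlap and share 1 pooled summit in an intron of cha-1 (11.1, rank 22921; rank 16332 in replicate 1), so they are not separate observations. The monoamine genes cat-1 (the vesicular transporter), cat-2 (the enzyme of dopamine synthesis) and tph-1 (the enzyme of serotonin synthesis) had no summit in any list.

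The sensory and identity genes were split between 2 with strong peaks beside other genes and 5 with none. osm-6, a component of intraflagellar transport in ciliated sensory neurons, had the highest signal of any member, 72.1 (rank 720), in a coding exon 113 bp before its end. That summit lies 81 bp past the end of R31.2, a gene on the other strand that runs towards it. Replicate 2 had it at rank 399, 1 bp away, whereas replicate 1 had no summit within 100 bp but one at rank 879 (43.8) by the next pooled summit, which had rank 10604. mec-4, the channel subunit of touch receptor neurons, was alike in place: its best summit (41.9, rank 2672) lay 169 bp before its end and 92 bp past the end of aak-2, a gene on the other strand, and was at rank 1990 in replicate 1 and 2419 in replicate 2. Both replicates ranked the mec-4 site high. The best peaks of osm-6 and mec-4 each lie where 2 genes end and cannot be given to either gene alone.

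**Figure D4:**
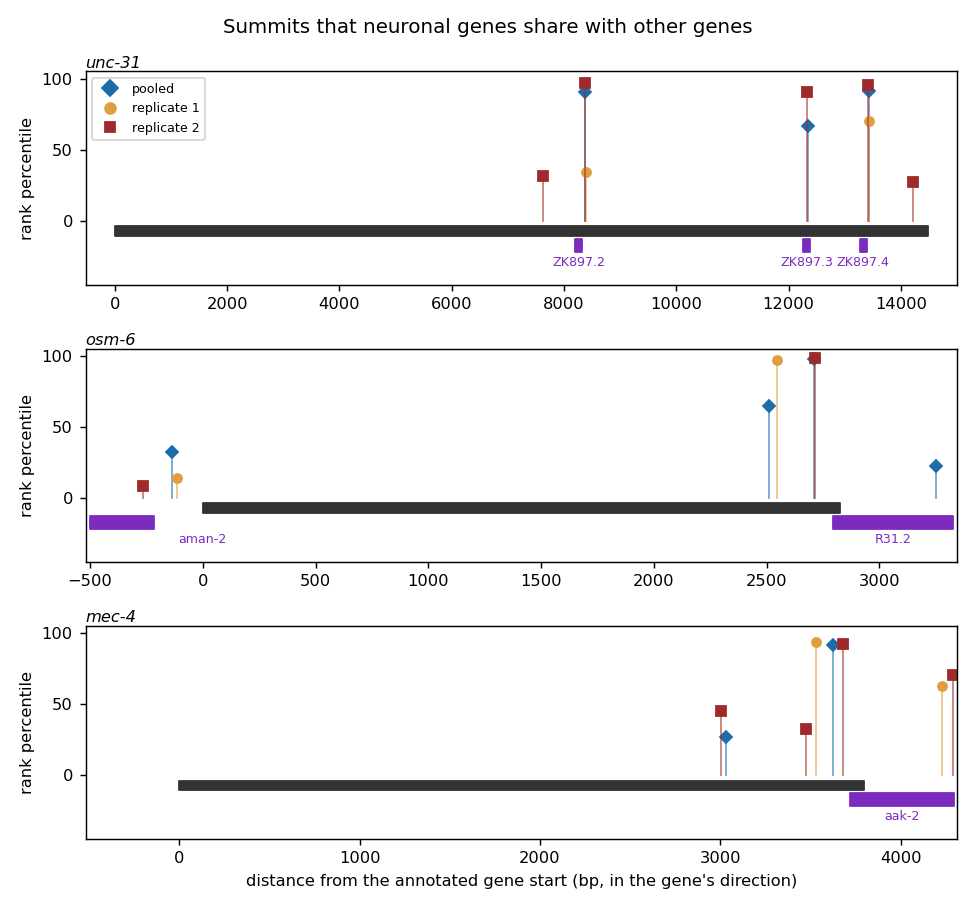
Summits at unc-31, osm-6 and mec-4 by distance from the annotated start (bp, in the direction of the gene) and rank percentile (vertical axis, 100 the strongest), for the pooled list (diamonds), replicate 1 (circles) and replicate 2 (squares); the dark bar is the gene and the purple bars are other genes that lie in it or overlap its ends or flanks. The highest points stand at the snRNA genes in unc-31 and beside the ends of R31.2 and aak-2.

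mec-7, the beta-tubulin of touch neuron microtubules, was the only sensory gene with its best pooled summit away from other genes, at rank 21051 (12) 198 bp after the start. Another lay 54 bp before the start (11.5, rank 22098). Replicate 1 had both, at ranks 11109 and 11084, and replicate 2 had neither. The transcription factors mec-3, unc-86 and ttx-3, which set the identity of touch neurons and of interneurons, and tax-2 and tax-4, the subunits of the cyclic nucleotide-gated channel of sensory neurons, had no summit in any list.

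Summits shared with other genes touch the classes unequally. Of the 80 cases, 28 (35.0%) were near or inside another gene, against 43.7% for all protein-coding genes. By class it was 26.2% of 65 for pan-neuronal, 71.4% of 7 for transmitter-specific and 75.0% of 8 for sensory and identity genes. Counting only summits with no other gene inside or within 500 bp, 15 members (12 pan-neuronal, 1 transmitter-specific, 2 sensory and identity) kept a pooled summit against 27.0% of all protein-coding genes, and for 12 members the best summit was such a one, against 13.1%. Besides mec-7, these 12 were all pan-neuronal: unc-119, snb-1, ric-4, unc-64, unc-13, unc-18, rgef-1, sbt-1, ida-1, egl-3 and egl-21. The members are longer than protein-coding genes at large (median 4932 bp against 2027 bp), and these counts were not compared by length class.

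A minority of the members' pooled sites was found in both replicates. Of the 80 pooled cases, 76.2% had a summit of replicate 1 within 100 bp, 42.5% one of replicate 2, and 25% (95% Wilson interval 16.8 to 35.5, for the number of cases only) one of both. The interval takes the cases as independent, which they are not, since 14 of them are at ida-1 alone. For all protein-coding genes the 3 shares were 65.5%, 57.6% and 33.6%. The windows of the members held 92 different summits in replicate 1 and 57 in replicate 2. A summit was present in both replicates at 17 members, in replicate 1 only at 6 (mec-7, sbt-1, snt-1, unc-10, unc-18 and unc-47) and in replicate 2 only at 0. Among all protein-coding genes the corresponding shares were 35.1%, 7.71% and 8.47%. Matches were fewer at low ranks: of 18 member summits among the 10000 strongest pooled peaks, 50% were matched in both replicates against 61.4% of all pooled summits of these ranks. Of the next 32, down to rank 20000, 31.2% were matched against 26.0%, and of the last 29 it was 3.45% against 6.36%.

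The letters of the polyadenylation signal, AATAAA, were counted in each summit and the 50 bases either side of it, on either strand. They were found at 15 of 79 member summits (19%), against 16.5% of all 30000 pooled summits. At the ends of members they were found in 8 of 22 cases (36.4%), against 20.6% for the ends of all protein-coding genes. The median GC content was 38.6% at member summits and 39.6% at all pooled summits, and at ends it was 36.1% for members and 38.6% for all protein-coding genes. The part of base composition in the motif's share was not tested. A match is a description of the sequence and not of a used site.

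Other genes of the same pathways, from lists chosen by role, were set beside the members with the same window in the pooled list. Of 37 other genes of synaptic release and transport 31 had a pooled summit against 43.3% of all protein-coding genes, 7 had an IDR summit against 10.3%, and 21 had a pooled summit at the start against 30.7%. Their median length was 7554 bp, and genes of 5000 to under 10000 bp stood at 63.4%. The best in this list was the G protein gene egl-30 (rank 124), whose summit lay 79 bp past its end and also before the start of emr-1. It was followed by unc-16 (rank 295) and unc-14 (rank 417), which act in axonal transport and outgrowth. The unc-16 summit lay before its start, in an exon of the non-coding RNA gene ZK1098.13 and near the end of ZK1098.12. That of unc-14 had no other gene near it. Many of these genes are used outside neurons as well. Of 16 other transmitter enzymes and transporters 10 had a summit and 1 an IDR summit, led by the glutamate transporter genes vglu-2 (67.3, rank 860) and glt-1 (34.8) and by tdc-1 (32.6), which encodes tyrosine decarboxylase. These 3 best summits each lay near another gene, and the median length of the list was 3464 bp.

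The other lists are given with their median lengths, since the share of genes with a summit grows with length as shown above. Of 20 transmitter receptor genes (6377 bp) 8 had a pooled summit and 0 an IDR summit, the best being gbb-2 (26.5), unc-49 (24) and avr-15 (20.6). The summit at gbb-2 also lay near the end of trx-3, and that at avr-15 in an intron of gut-2. Of 28 other touch, cilia and sensory genes (6281 bp) 9 had one and 2 an IDR summit. The strongest, at rank 55 (199), lay 75 bp past the end of the guanylyl cyclase gene odr-1 and also near the end of cah-4. It was followed by the ciliary transcription factor gene daf-19 (76.6, with no other gene near it) and mec-6 (41.5, also near the end of lbp-6). Of 18 other neuron identity factors (4932 bp) 3 had a pooled summit (egl-44, ttx-1 and lin-11). The best summit at egl-44 also lay before the start of F28B12.6 and had no summit of either replicate within 100 bp. That at lin-11 also lay near the end of ZC247.2, and that at ttx-1 had no other gene near it. Of 14 neuropeptide genes (1456 bp) 5 had one, of which the best were flp-1, nlp-12 and ntc-1, each near or inside another gene. All protein-coding genes stood at 43.3% by the same rule.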

How the data were processed

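Peak lists from 2 AMA-1 ChIP-seq replicates of whole L4 larvae were used on build ce11. Per the notes deposited with the samples, each replicate's list holds peaks and background called from its alignments and a control, as input for an IDR analysis, the pooled list comes from both, and the IDR set from all 3. The sources used here name no aligner, peak caller, version, read filter or IDR threshold. The control and the ce10 lists were not analysed here. The score of each peak is the signal value deposited by the authors; its use here was limited to the order and description of peaks of 1 list. Read depth per sample is unknown.

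Genes came from Ensembl release 115 (WBcel235, the same assembly as ce11) and sequences from the RefSeq genome. Some sequences are not reported here. The outermost annotated 5′ end was taken as the start of a gene. Summits in the gene or 500 bp either side were taken, ranked by signal within each list. A summit counts as another gene's too when it lies inside it or within 500 bp of its start or end (piRNA genes left out), and as matched when a replicate summit lies within 100 bp. Coordinates are 1-based. Scripts ran in Python 3.11.15 with Biopython 1.88 and matplotlib 3.10.9, and the counting was tested on simulated data.

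With 1 group of 2 samples there is no contrast and no test; counts stand beside the share of all 19973 protein-coding genes. Named are all 32 members, up to 3 genes of each other list with the highest pooled signal, neighbours that hold or adjoin a described summit, and ama-1. The 4-gene peptide group, like all members, classes and lists, were chosen with earlier results of these data known. Windows, peak cut-offs, matching distances, the start definition, merging, gene subsets and each replicate alone were tried as alternatives.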

Additional observations from a re-analysis of the deposited data

How the results depend on the processing

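No paired analysis was possible because there is 1 group and no contrast. A count was taken as moved past 1.5 times its value, and a share, median or density past its interval or 1 SD of the replicates, which is wide with 2 replicates; by this measure 13 of 48 alternatives moved a value. Only the differences in median best percentile between pan-neuronal genes and each other class were tried, and neither changed sign. For sensory and identity genes this says little. Only 3 of 8 had a pooled summit, so their median was 0 and the difference could not turn negative. The exception was the alternative without mec-3, unc-86 and ttx-3. The density order of transmitter-specific against sensory and identity genes did change between lists, as given above. The members with a summit, 20 of 32, became 9 among the 10000 strongest pooled peaks and 6 under the stricter cut at 2 times the size of the IDR set. Those with a start summit, 9, became 15 with a window of 1000 bp, 4 among the 10000 strongest and 2 under the stricter cut. The share matched in both replicates, 25%, was 15% within 50 bp, 42.5% within 200 bp and 5% with each replicate's 10000 strongest peaks. The share near or inside another gene, 35%, was 26.7% with 250 bp and 51.7% with 1000 bp. The difference in median best percentile between pan-neuronal and transmitter-specific genes, 50.2, was 41.3 without sbt-1, ida-1, egl-3 and egl-21 and 62 without cha-1. Between pan-neuronal and sensory and identity genes it was 62, and 32.2 without mec-3, unc-86 and ttx-3. The cause of these moves was not tested, beyond fewer peaks or wider limits by construction.

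With each replicate alone, members with a summit ranged from 17 to 23, those with a start summit from 6 to 12, the median percentile from 11.8 to 52, the summits per kb from 0.246 to 0.407, and the differences between classes from 25.2 to 35.2 (transmitter-specific) and 44.2 to 69.7 (sensory and identity). A gene without a summit among 30000 peaks is below the cut-off of the list and not shown to lack polymerase.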
